A study of Mus musculus with 11 samples.

Results

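Genes that mark the blood vessel wall, 37 of the 20284 genes with a named probe on the array, were followed in 3 kinds of mouse material. They were taken by symbol as known genes of endothelial cells and pericytes, and each was read from the brightest of its non-control probes. All 37 passed the filter on dim probes, as 18561 genes did in all, with 29 of them having 1 probe and 8 having 2. Signal was measured on 11 single-colour arrays, of which 3 held cochlear sensory epithelium (CSE), 6 held otospheres and 2 held embryonic stem cells (ESCs). CSE was dissected from ICR mice aged 1 day, with 20 cochleae of 10 mice in a preparation, after the spiral ligament and the stria vascularis had been taken off. Otospheres were floating spheres grown from dissociated CSE of the same strain and age, in serum-free medium with N2, B27, bFGF, IGF1, heparan sulfate and ampicillin. They were passaged once with trypsin, after 4 to 5 days, cultured for 4 to 5 days more and sieved at 100 µm to keep the solid spheres. The ESCs were the line G4-2 (ES1) and the line D3 (ES2), both at passage 13, kept in serum and LIF without feeder cells, with no strain given. The labels name no drug, deletion or transgene in any group, and each ESC line was 1 sample.

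Blood vessels are lined by endothelial cells, whose tight and adherens junctions seal the wall and whose receptor kinases answer vascular growth factors and angiopoietins. Pericytes wrap the capillaries from outside and answer endothelial platelet-derived growth factor. In the cochlea, capillaries run through the tissue under the sensory epithelium as well as through the lateral wall, so a dissected duct holds vessel cells and blood beside hair cells and supporting cells.

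The median spot signal was 68 to 116 per array against a median local background of 32 to 38, no spot was saturated, and 55.1 to 71.6% of spots lay well above background. The arrays OS1 with OS2, and OS4 with OS5, lay closer to each other than the spots of one probe did, less than the sampling noise, and counted as 1 sample per pair, leaving 4 otosphere samples named OS1+2, OS3, OS4+5 and OS6. ES1, CSE1, CSE2 and OS1 to OS3 shared slide 1, and ES2, CSE3 and OS4 to OS6 shared slide 2. Most marker genes matched the labelled tissues. *Oc90*, an otoconial protein of inner ear epithelium, read 17.45 to 17.77 on the log2 scale in CSE. *Pou5f1*, a pluripotency factor, read 14.02 and 14.27 in the ESCs against 5.25 to 5.56 in all other samples. Of 8 cochlear epithelium genes, 5 were higher in CSE than in ESCs and 2, *Sox2* and *Cdh1*, were lower (limma, adjusted p under 0.05). Of 6 pluripotent cell genes, 5 were lower in CSE and none was called higher. Over all genes, 20.9% were higher in CSE than in ESCs and 20% lower. CSE2 was the lowest CSE sample for 30 of the 37 vessel genes, where 51.1% of all genes had their lowest CSE value there. OS6 was the lowest otosphere sample for 19 of the 37, where the share over all genes was 29.4%.

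The comparison of otospheres with CSE asked how far the vessel genes of the tissue were still measured after dissociation and sphere culture. Of the 37 genes, 17 were lower in otospheres at an adjusted p under 0.05 (limma), against 10.3% of all genes, and 1 was higher, against 7.17%. The 17 were all endothelial, out of 32 endothelial genes, and the 1 that rose was the pericyte gene *Rgs5*. The median difference over the 37 genes was -1.50 on the log2 scale, beside -0.01 over all genes. Of the 37 differences 34 were below 0, beside 9396 of 18561 over all genes. Every otosphere sample lay below every CSE sample for the same 17 genes, against 18.9% of all genes, and above for *Flt4* and *Rgs5*, against 14.1%. Arrays of whole tissue or whole spheres cannot tell fewer cells of a type from less RNA per cell. All signals below are log2 values after quantile normalization, the otosphere values are in the order OS1+2, OS3, OS4+5 and OS6, and differences are otospheres minus CSE with their standard error unless another pair is named.

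**Figure D1:**
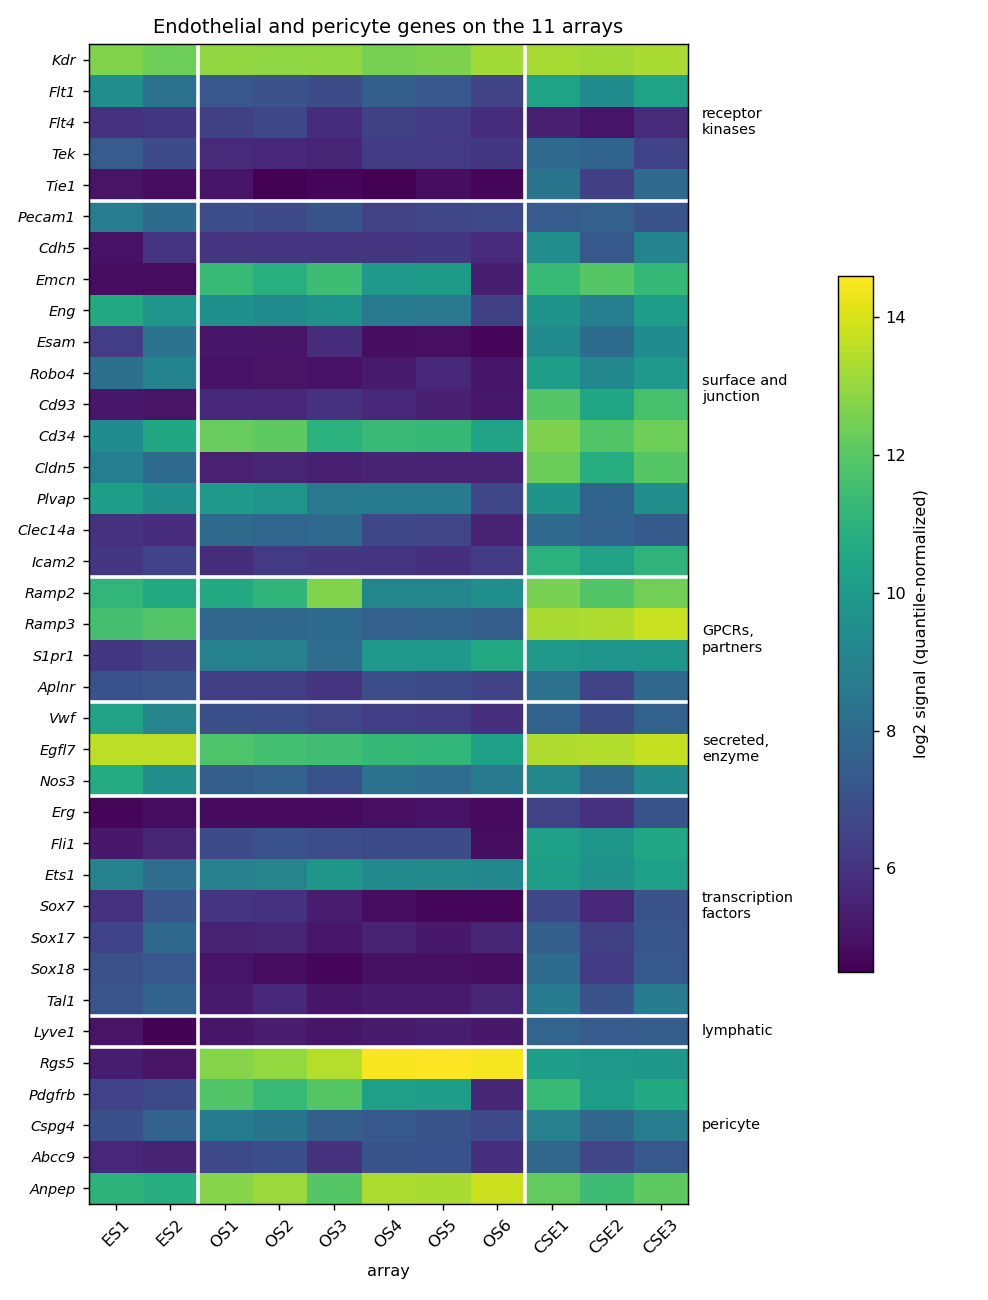
Log2 signal (colour) of the 37 genes (rows, grouped by role) on the 11 arrays (columns, ESCs, otospheres and CSE separated by white lines). *Cldn5*, *Cd93*, *Robo4*, *Icam2* and *Ramp3* are bright in the 3 CSE arrays and dim in the 6 otosphere arrays, whereas *Rgs5* is brightest in otospheres.

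The junction and surface proteins held the strongest falls, with 6 of 12 lower and none higher, beside 10.3% and 7.17% of all genes. *Cldn5*, the claudin of endothelial tight junctions, read 12.32, 10.80 and 11.93 in CSE1, CSE2 and CSE3, 5.49, 5.37, 5.50 and 5.45 in otospheres, and 8.84 and 8.03 in ES1 and ES2. The otosphere samples lay together at the bottom of the scale, with the ESC lines in between and no overlap between groups. *Cldn5* fell by 6.23 ± 0.35, or 75.2-fold (limma, adjusted p = 3.80e-05). *Cd93*, a C-type lectin-like receptor of endothelial and some blood cells, read 11.89, 10.46 and 11.67 in CSE, 5.62, 5.92, 5.51 and 5.13 in otospheres, and 5.16 and 5.05 in ESCs. Here otospheres and ESCs were both near the floor and overlapped each other, far below CSE, and *Cd93* fell by 5.79 ± 0.34 from CSE to otospheres, or 55.4-fold (limma, adjusted p = 5.05e-05).

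*Icam2*, an adhesion molecule present on resting endothelium, read 10.96, 10.33 and 11.07 in CSE, 6.01, 6.09, 5.98 and 6.27 in otospheres, and 6.08 and 6.53 in ESCs. It fell by 4.70 ± 0.22, or 25.9-fold (limma, adjusted p = 1.44e-05), and the otosphere values overlapped those of the ESCs. *Robo4*, the endothelial member of the roundabout receptors, read 10.13, 9.20 and 9.94 in CSE, 5.01, 4.99, 5.44 and 5.05 in otospheres, and 8.25 and 9.06 in ESCs. *Robo4* fell by 4.63 ± 0.28, or 24.8-fold (limma, adjusted p = 5.28e-05), to below both ESC lines. It was well above background on 1 of 6 otosphere arrays, so these folds rest on signals mostly near background. *Robo4*, *Ramp3* and *Cd93* are also among the genes that the study singled out, as are *Fli1*, *Sox17* and *Sox18* below. The study used these samples together with ESC datasets of other series. No direction given here, for these 6 or any other gene, is evidence independent of the study, since all were read from arrays that it used.

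*Esam*, an adhesion molecule of endothelial tight junctions, read 9.38, 8.09 and 9.42 in CSE and 5.12, 5.78, 4.89 and 4.64 in otospheres, where no array had it well above background. The fall was therefore a bound, at least 12.9-fold (limma, adjusted p = 0.00214), taken against the lowest signal among probes well above background on each array. *Cdh5*, the VE-cadherin of adherens junctions, read 9.47, 7.29 and 9.02 in CSE and 6.07, 6.02, 6.09 and 5.71 in otospheres. It fell by 2.62 ± 0.48 (limma, adjusted p = 0.00900), with CSE2 the lowest of its group by over 1 log2 unit.

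The other 6 surface genes did not pass the test between otospheres and CSE, and for several of them the otosphere samples disagreed. *Emcn*, the endomucin of venous and capillary endothelium, read 11.30, 11.92 and 11.25 in CSE, and 11.08, 11.46, 9.97 and 5.33 in otospheres. OS3 lay within the CSE range and OS1+2 just under it, whereas OS6 and the ESCs, at 4.86 and 4.84, were not well above background, so that the mean difference of -2.03 had a 95% interval of -4.92 to 0.86 (limma, adjusted p = 0.439). *Eng*, a co-receptor for TGF-beta ligands that mesenchymal cells also make, read 9.72, 8.87 and 10.11 in CSE and 9.47, 9.69, 8.59 and 6.41 in otospheres. *Plvap*, the diaphragm protein of fenestrated vessels, read 9.74, 7.74 and 9.48 in CSE and 9.85, 8.59, 8.68 and 6.67 in otospheres. In both genes OS6 was the lowest of all samples and the other otosphere samples overlapped CSE.

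*Clec14a*, an endothelial lectin-like receptor, had 7.97, 7.68 and 7.37 in CSE and 7.90, 7.95, 6.64 and 5.52 in otospheres, with the same order of OS6 at the bottom. *Cd34*, a sialomucin of endothelial and progenitor cells, differed by -1.08 ± 0.43 (limma, adjusted p = 0.173), with otospheres at 12.18, 10.95, 11.32 and 10.39 against 12.64, 11.87 and 12.38 in CSE. *Pecam1*, an adhesion molecule that mouse ESCs also make, differed by -0.56 ± 0.22 (limma, adjusted p = 0.174) and read 6.55 to 7.11 in otospheres, 7.10 to 7.58 in CSE and 8.08 to 8.77 in ESCs. *Pecam1*, a common marker of all endothelium, was thus highest in the stem cell lines on this array, and OS3 lay just above CSE3.

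**Figure D2:**
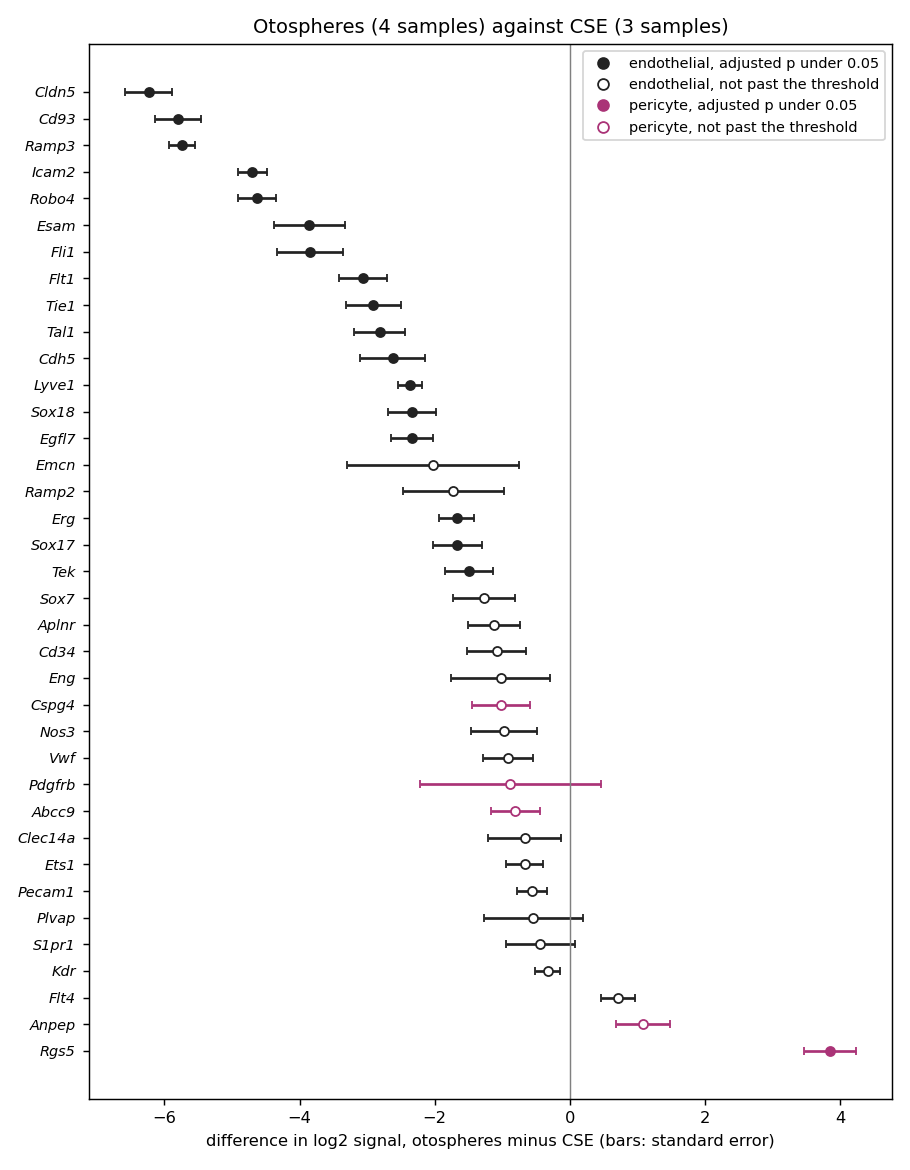
Difference in log2 signal, otospheres minus CSE, for each of the 37 genes (points), with standard errors (bars). Filled points passed an adjusted p of 0.05 (limma), black points are endothelial and purple points are pericyte genes. The 17 filled black points lie left of 0, from -6.23 for *Cldn5* to -1.50 for *Tek*, and the filled purple point is *Rgs5* at 3.84.

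Of the 5 angiogenic receptor kinases, 3 were lower in otospheres, against 10.3% of all genes. *Flt1*, the VEGF receptor that also acts as a decoy, read 10.37, 9.40 and 10.37 in CSE, 7.15, 6.85, 7.38 and 6.57 in otospheres, and 9.44 and 8.30 in ESCs, and fell by 3.06 ± 0.35 (limma, adjusted p = 0.000992). *Tie1*, an orphan receptor that modulates angiopoietin signalling, read 8.43, 6.41 and 7.96 in CSE and 4.64 to 4.78 in otospheres, where it was well above background on no array, which makes the fall at least 6.18-fold (limma, adjusted p = 0.00241). *Tek*, the angiopoietin receptor, read 7.95, 7.74 and 6.54 in CSE and 5.69, 5.55, 6.27 and 6.15 in otospheres and fell by 1.50 ± 0.36 (limma, adjusted p = 0.0287). CSE3 lay close above OS4+5 for *Tek*, and the call was lost without OS1+2 (adjusted p = 0.0708), OS3 (0.0612), CSE1 (0.121) or CSE2 (0.0970).

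*Kdr*, the main VEGF receptor of endothelium, gave different values from its 2 probes. By the brighter probe *Kdr* read 13.27, 13.18 and 13.30 in CSE, 12.95, 12.93, 12.59 and 13.21 in otospheres, and 12.68 and 12.35 in ESCs, a difference of -0.33 ± 0.18 (limma, adjusted p = 0.350). By the dimmer probe it read 10.33, 8.94 and 9.53 in CSE, 6.04, 5.17, 5.79 and 5.17 in otospheres, and 6.57 and 6.37 in ESCs and fell by 4.05 ± 0.35 (limma, adjusted p = 0.000238). The brighter probe stayed between 12.35 and 13.30 over the 9 samples, whereas the dimmer one separated CSE from both cultures in the manner of *Cd93* and *Icam2*. Which of the probes reports *Kdr* transcripts was not tested. *Flt4*, the VEGF-C receptor of lymphatic endothelium, was the exception among the kinases, at 6.55, 5.82, 6.34 and 5.81 in otospheres against 5.40, 5.09 and 5.77 in CSE, where no array had it well above background. Its difference of 0.71 ± 0.25 did not pass the test (limma, adjusted p = 0.113), but was 2.33 with the scanner-processed signals scaled to an upper percentile of each array (percentile scaling, adjusted p = 0.0331) and passed with every array separate (0.0287). That last fit counts the arrays of each merged pair as independent samples, although they differed by less than the spot noise.

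**Figure D3:**
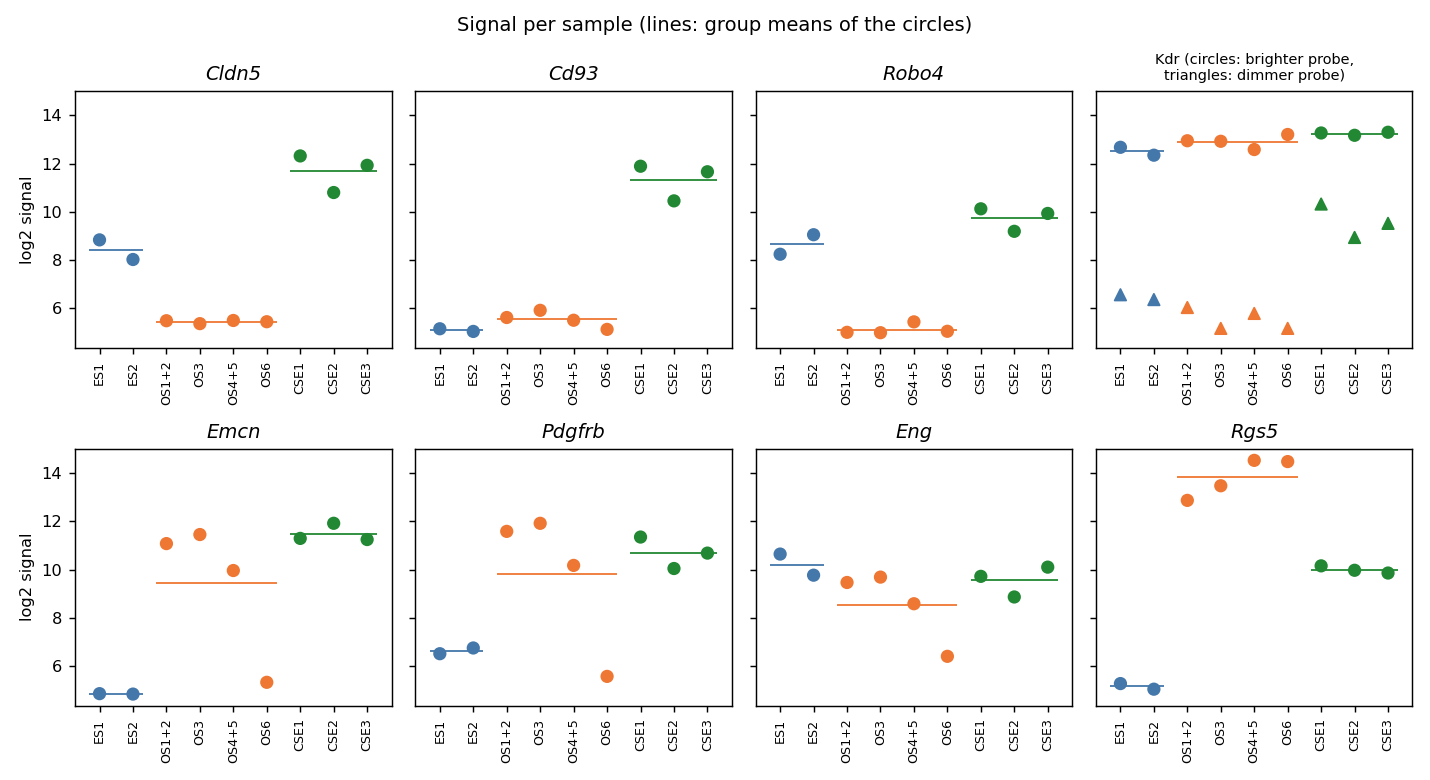
Log2 signal (vertical axes) of 8 genes in each of the 9 samples (points, ESCs in blue, otospheres in orange, CSE in green) with group means (lines). *Cldn5*, *Cd93* and *Robo4* separate otospheres from CSE, the circles and triangles of *Kdr* are its brighter and dimmer probe, *Emcn*, *Pdgfrb* and *Eng* have OS6 far below the other otosphere samples, and *Rgs5* is above CSE in all 4 otosphere samples.

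Among the G protein-coupled receptors and their partners, *Ramp3* was the one that fell. *Ramp3*, which turns the calcitonin receptor-like receptor into an adrenomedullin receptor, read 13.34, 13.38 and 13.76 in CSE, 7.88, 8.02, 7.64 and 7.48 in otospheres, and 11.62 and 11.88 in ESCs. Replicates were tight in every group and no groups overlapped, and *Ramp3* fell by 5.74 ± 0.19, or 53.3-fold (limma, adjusted p = 4.97e-06). *Ramp2*, the partner protein for the same receptor in vessels, behaved differently, at 12.56, 11.85 and 12.44 in CSE and 10.88, 12.68, 9.14 and 9.53 in otospheres. OS3 was the highest of all 9 samples for *Ramp2* and OS4+5 the lowest, so the difference of -1.73 ± 0.74 did not pass (limma, adjusted p = 0.212) but did without OS3 (-2.43, adjusted p = 0.0116).

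*S1pr1*, the sphingosine-1-phosphate receptor that stabilizes vessels, read 9.94, 9.80 and 9.82 in CSE and 8.93, 8.13, 9.96 and 10.62 in otospheres, with OS4+5 and OS6 above every CSE sample and the other otosphere samples below. *Aplnr*, the apelin receptor, read 8.29, 6.57 and 7.91 in CSE and 6.07 to 6.88 in otospheres. Its difference of -1.12 ± 0.38 (limma, adjusted p = 0.110) became -1.63 without CSE2, which alone overlapped the otospheres (adjusted p = 0.00795).

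*Egfl7*, a secreted factor of endothelium, was the one of 3 genes for secreted factors and enzymes that fell, where 10.3% of all genes did. It read 13.40, 13.42 and 13.69 in CSE, 11.70, 11.50, 11.21 and 10.27 in otospheres, and 13.61 in both ESC lines and fell by 2.33 ± 0.31 (limma, adjusted p = 0.00199). *Vwf*, the platelet-binding protein stored in endothelium, was dim in both tissue and spheres, at 7.67, 6.77 and 7.63 in CSE and 6.93, 6.61, 6.31 and 5.90 in otospheres, and brighter in ES1 (10.34) and ES2 (9.10). *Nos3*, the endothelial nitric oxide synthase, read 9.22, 7.99 and 9.37 in CSE, 7.62, 7.03, 8.24 and 8.64 in otospheres, and 10.72 and 9.51 in ESCs. Neither *Vwf* (-0.92 ± 0.37) nor *Nos3* (-0.98 ± 0.49) passed the test between otospheres and CSE.

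Of the 7 transcription factors, 5 fell, against 10.3% of all genes. *Fli1*, an ETS factor of endothelial and blood cells, read 10.24, 9.86 and 10.53 in CSE, 6.93, 6.89, 6.78 and 4.87 in otospheres, and 5.20 and 5.55 in ESCs. The first 3 otosphere samples lay together, OS6 and both ESC lines were not well above background, and *Fli1* fell by 3.84 ± 0.48 (limma, adjusted p = 0.00146). *Erg*, the closely related ETS factor, read 6.44, 5.95 and 7.12 in CSE and 4.79 to 4.95 in otospheres, on no otosphere array well above background, so that its fall was at least 2.85-fold (limma, adjusted p = 0.00347). The dimmer *Erg* probe did not pass (-0.53, adjusted p = 0.0545). *Ets1*, an ETS factor with a wider range of cell types, did not pass either (-0.67 ± 0.27, limma, adjusted p = 0.180), although it read 9.04 to 9.80 in otospheres and 9.65 to 10.21 in CSE with only OS3 above a CSE sample.

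*Tal1*, a basic helix-loop-helix factor of blood and vessel precursors, read 8.63, 7.09 and 8.70 in CSE and 5.11 to 5.53 in otospheres and fell by 2.81 ± 0.38 (limma, adjusted p = 0.00200), with 1 of 6 otosphere arrays well above background. *Sox18*, one of the SOX factors of vessel identity, read 8.03, 6.27 and 7.30 in CSE and 4.69 to 4.96 in otospheres, which made it at least 4.67-fold lower (limma, adjusted p = 0.00345). *Sox17*, its arterial relative that endoderm also makes, read 7.57, 6.42 and 7.19 in CSE and 5.17 to 5.53 in otospheres and fell by 1.66 ± 0.36 (limma, adjusted p = 0.0199). The *Sox17* call was lost without OS4+5 (adjusted p = 0.0558), CSE1 (0.0899) or CSE3 (0.0799), while its dimmer probe fell by more, at least 5.64-fold (adjusted p = 0.00142). *Sox7*, the remaining relative, read 6.71, 5.61 and 7.09 in CSE and 5.32, 4.79 and 4.68 in OS3, OS4+5 and OS6, with OS1+2 between CSE2 and CSE1, and did not pass (-1.27 ± 0.46, limma, adjusted p = 0.133). *Lyve1*, a hyaluronan receptor of lymphatic endothelium and of some macrophages, read 7.81, 7.41 and 7.48 in CSE and 5.11 to 5.29 in otospheres, at least 5.17-fold lower (limma, adjusted p = 0.000128).

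The promoters of 5 of these genes, picked after values and matches had been seen, are shown as examples. *Tie1*, *Robo4* and *Ramp3* hold a searched word of ETS sites, and *Cldn5* and *Rgs5* hold none of the searched words. RefSeq windows on GRCm38.p6, from 250 bases before to 50 after a transcription start, matched 19 of the 37 genes with 24 starts. Capitals mark the words AGGAAG and CCGGAA on either strand, which are core words of ETS sites and cannot share one GGAA. GGAA outside these words, which the *Rgs5* window also holds, was not marked. The windows are chr4:118489800-118490099 (minus strand) for *Tie1*, chr9:37401722-37402021 (plus) for *Robo4*, chr11:6658283-6658582 (plus) for *Ramp3*, chr16:18776597-18776896 (plus) for *Cldn5* and chr1:169655251-169655550 (plus) for *Rgs5*, each written 5′ to 3′ along its gene.
Tie1: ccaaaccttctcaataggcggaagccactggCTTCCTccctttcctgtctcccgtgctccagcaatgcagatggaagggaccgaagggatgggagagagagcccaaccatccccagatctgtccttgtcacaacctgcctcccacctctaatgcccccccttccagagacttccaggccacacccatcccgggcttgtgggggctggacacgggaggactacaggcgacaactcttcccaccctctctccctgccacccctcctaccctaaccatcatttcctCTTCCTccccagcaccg
Robo4: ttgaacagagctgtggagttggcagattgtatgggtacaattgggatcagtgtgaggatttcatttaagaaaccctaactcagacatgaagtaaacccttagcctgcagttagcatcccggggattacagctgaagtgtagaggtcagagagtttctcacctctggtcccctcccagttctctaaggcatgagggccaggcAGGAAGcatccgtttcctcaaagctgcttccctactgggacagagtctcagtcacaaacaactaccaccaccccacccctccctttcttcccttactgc
Ramp3: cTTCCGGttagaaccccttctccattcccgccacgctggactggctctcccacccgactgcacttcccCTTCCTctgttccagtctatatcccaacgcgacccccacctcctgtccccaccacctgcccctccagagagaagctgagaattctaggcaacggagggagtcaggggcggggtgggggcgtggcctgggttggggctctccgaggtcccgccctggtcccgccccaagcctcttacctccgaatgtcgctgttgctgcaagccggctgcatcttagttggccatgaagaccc
Cldn5: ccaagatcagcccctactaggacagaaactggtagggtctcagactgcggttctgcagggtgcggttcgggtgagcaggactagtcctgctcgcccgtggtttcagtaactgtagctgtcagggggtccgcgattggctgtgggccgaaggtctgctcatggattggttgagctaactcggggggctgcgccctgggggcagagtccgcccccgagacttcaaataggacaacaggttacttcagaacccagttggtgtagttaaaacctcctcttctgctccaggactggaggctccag
Rgs5: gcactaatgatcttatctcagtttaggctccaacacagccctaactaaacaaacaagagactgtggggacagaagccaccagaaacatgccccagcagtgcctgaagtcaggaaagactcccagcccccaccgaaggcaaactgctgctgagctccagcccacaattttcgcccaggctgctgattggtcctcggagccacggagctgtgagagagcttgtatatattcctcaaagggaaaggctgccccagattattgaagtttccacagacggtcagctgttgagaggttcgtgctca

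An ETS word was present in 11 of the 24 vessel gene windows (45.8%) and in 45.2% of all 32851 windows of that length. The SOX word AACAAT was in 3 of 24 vessel gene windows (12.5%) and in 3521 of all, the GATA word AGATAA in 16.7% and 11.2%, and the E-box CAGCTG, which *Tal1* partners can bind, in 20.8% and 16.3%, both strands counted. By these letters the windows of vessel genes were close to those of other genes, and *Cldn5*, whose signal fell most, held none of the ETS words within its window. A match of letters is not a bound site.

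Of the 5 pericyte genes 1 rose, where 7.17% of all genes did. Differences were below 0 for 3 of the 4 that did not pass the test, and no test compared the pericyte with the endothelial genes. *Rgs5*, a regulator of G protein signalling that marks pericytes, read 10.16, 9.98 and 9.86 in CSE, 12.87, 13.48, 14.53 and 14.48 in otospheres, and 5.28 and 5.05 in ESCs. The 3 groups were far apart, otospheres uppermost, and *Rgs5* rose by 3.84 ± 0.39 from CSE, or 14.3-fold (limma, adjusted p = 0.000525). Within slide 1 the rise was 3.11 and within slide 2 it was 4.64. *Pdgfrb*, the platelet-derived growth factor receptor of pericytes and fibroblasts, read 11.35, 10.05 and 10.69 in CSE and 11.59, 11.92, 10.18 and 5.58 in otospheres. OS1+2 and OS3 were above every CSE sample, and OS6 was below both ESC lines, at 6.52 and 6.76, so the mean difference of -0.88 ± 1.33 had a 95% interval of -3.91 to 2.15 (limma, adjusted p = 0.823).

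*Cspg4*, the NG2 proteoglycan of pericytes and glial precursors, read 8.89, 7.90 and 8.74 in CSE and 8.53, 7.55, 7.18 and 6.71 in otospheres (-1.02 ± 0.43, limma, adjusted p = 0.205). *Abcc9*, the sulphonylurea receptor subunit of pericyte potassium channels, read 7.84, 6.66 and 7.29 in CSE and 6.85, 5.97, 7.07 and 5.91 in otospheres (-0.81 ± 0.36, limma, adjusted p = 0.233). *Anpep*, the aminopeptidase CD13 of pericytes and several epithelia, was higher in 3 of the otosphere samples than in any CSE sample, at 12.92, 11.95, 13.33 and 13.77 against 12.18, 11.45 and 12.09. Its difference of 1.08 ± 0.40 did not pass (limma, adjusted p = 0.138), and passed without OS3 (1.43, adjusted p = 0.0160).

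The otosphere means on the 2 slides differed for a set of these genes, and slide and culture set cannot be told apart there. *Emcn* differed from CSE by -0.34 within slide 1 and by -3.60 within slide 2, *Pdgfrb* by 1.05 and -2.81, *Eng* by 0.28 and -2.61, *Ramp2* by -0.42 and -3.11, and *Plvap* by 0.48 and -1.81. On slide 2, OS6 lay far below OS4+5 for *Emcn* (5.33 against 9.97), *Pdgfrb* (5.58 against 10.18), *Eng* (6.41 against 8.59) and *Plvap* (6.67 against 8.68). Those slide 2 means were therefore pulled down by OS6, whereas *Ramp2* read 9.14 in OS4+5 and 9.53 in OS6. In contrast, *Cldn5* differed by -6.13 within slide 1 and -6.46 within slide 2, and *Cd93* by -5.40 and -6.34. For the 17 genes that fell, every otosphere sample lay below every CSE sample, so differences below 0 within both slides had to follow. Their sizes were not alike in all. *Tek* differed by -2.23 within slide 1 and -0.34 within slide 2, and *Fli1* by -3.14 and -4.71. *Esam* differed by -3.28 and -4.66, and *Egfl7* by -1.81 and -2.95. In OS6 the mesenchymal collagen gene *Col3a1* was also low, at 6.51 against 13.96, 15.59 and 11.82 in the other otosphere samples, and the mean of 14 mesenchyme genes was 7.95 there against 10.1 to 11.8, whose part in the result was not tested.

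CSE against ESCs gave the level of the vessel genes in tissue relative to cultures of 1 cell type. Of the 37 genes, 17 were higher in CSE, against 20.9% of all genes, and *Pecam1* and *Vwf* were lower, against 20%. The median difference was 1.40, beside -0.02 over all genes. *Emcn*, *Cd93*, *Fli1* and *Rgs5* were well above background on no ESC array and were at least 69.0-, 62.1-, 28.2- and 24.2-fold higher in CSE, followed by *Icam2* with 22.3-fold and *S1pr1* with 11.9-fold. *Cldn5*, *Ramp3* and *Robo4*, 3 of the genes that fell most in otospheres, were also measured in ESCs and were higher in CSE by 9.52-, 3.34- and 2.15-fold (limma, adjusted p = 0.000509, 0.000587 and 0.0363). Leaving out 1 sample ended the call for *Robo4* (adjusted p up to 0.238, without ES1), *Kdr* (0.165, without ES2), *Pecam1* (0.112, without ES1), *Abcc9* (0.0774, without ES2), *Cd34* (0.0706, without ES1), *Ets1* (0.0661, without ES2) and *Emcn* (0.0502, without ES2). Processing choices also ended calls, those of *Ramp3* (0.0648), *Robo4* (0.0936) and *Pecam1* (0.125) with percentile scaling, of *Robo4* (0.0607) and *Kdr* (0.0628) with offset 0, and of *Robo4* (0.0571), *Kdr* (0.0507) and *Pecam1* (0.0873) in the authors' table. With only the 2 groups fitted, *Robo4* (0.0948) and *Kdr* (0.0545) were lost, and by the dimmer probe *Cd34* (0.296) and *Erg* (0.215) were. The *Kdr* call above is that of its brighter probe. Its dimmer probe was higher in CSE by 3.13, or 8.76-fold (limma, adjusted p = 0.000608). Without OS6, *Pdgfrb* passed as higher in CSE (4.06, adjusted p = 0.00107), as did *Clec14a* (adjusted p = 0.0120). Other calls gained included *Tal1* (0.00876), *Flt1* (0.0280), *Aplnr* (0.0415) and *Esam* (0.0441) without CSE2, and *Anpep* (0.0485) without OS3. Over all alternatives *Clec14a* passed in 4, and *Flt4* and *Ramp2* in 1 each. By its dimmer probe *Plvap* was lower in CSE than in ESCs (-1.19, limma, adjusted p = 0.0235).

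Otospheres against ESCs shared the otosphere samples with the first comparison and the ESC samples with the second. Of the 37 genes, 12 were lower in otospheres, against 20.4% of all genes, and 4 were higher, against 18.4%. *Ramp3*, *Robo4*, *Vwf*, *Cldn5*, *Egfl7*, *Sox18*, *Esam*, *Nos3*, *Tal1*, *Flt1*, *Sox17* and *Pecam1* were the lower ones, with *Ramp3* falling most, followed by 11.5-fold for *Robo4*, down to 3.09-fold for *Pecam1*. *Rgs5* was at least 347-fold higher in otospheres (limma, adjusted p = 3.97e-06), *S1pr1* 8.80-fold (adjusted p = 0.00354) and *Anpep* 4.22-fold (adjusted p = 0.00835). *Emcn* was at least 16.9-fold higher (adjusted p = 0.0427), a call lost without any one of ES1, ES2, OS1+2, OS3, OS4+5 and the 3 CSE samples (adjusted p = 0.0575 to 0.147), and also with offset 50 (0.0624), with no filter on dim probes (0.0516) and with only the 2 groups fitted (0.0951). Without ES2 the calls of *Esam* (adjusted p = 0.184), *Sox17* (0.0788), *Anpep* (0.0539) and *Tal1* (0.0505) were lost, and without ES1 those of *Nos3* (0.133) and *Flt1* (0.0701). Without OS6, *Pdgfrb*, *Cd34*, *Clec14a* and *Fli1* passed as higher, with *Pdgfrb* at 4.59 (adjusted p = 0.000709). The call of *Esam* was also lost without OS4+5 (0.0516), and *Sox7* was gained as lower without OS1+2 (0.0481). *Tek*, just short of the threshold in the main fit (limma, adjusted p = 0.0512), passed as lower in 7 alternatives, among them without CSE3 (0.0134). By its dimmer probe *Plvap* was lower in otospheres than in ESCs (-1.08, limma, adjusted p = 0.0292).

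Over the 3 groups together, 27 of the 37 genes differed (limma F-test, adjusted over all probes), against 48.7% of all genes. By the best-fitting of the 6 patterns of high and low groups, 9 were high in ESCs and CSE, a pattern of 3.25% of all genes, namely *Flt1*, *Tek*, *Esam*, *Robo4*, *Ramp3*, *Egfl7*, *Sox17*, *Sox18* and *Tal1*. Another 8 were high in CSE alone, against 7.31%, namely *Tie1*, *Cdh5*, *Cd93*, *Cldn5*, *Icam2*, *Erg*, *Fli1* and *Lyve1*. A further 6 were high in otospheres and CSE (*Emcn*, *Cd34*, *S1pr1*, *Ets1*, *Rgs5* and *Abcc9*, against 13.4%), 3 in ESCs alone (*Pecam1*, *Vwf* and *Nos3*, against 16.8%) and 1 in otospheres alone (*Anpep*, against 4.88%). The best-fitting pattern is not a test between pairs of groups. *Anpep* did not pass between otospheres and CSE (limma, adjusted p = 0.138), nor *Nos3* between CSE and ESCs (0.152). *Cldn5* was 7.90-fold higher in ESCs than in otospheres (limma, adjusted p = 0.000616).

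A second list of 40 endothelial genes, of which 38 were tested, held 13 that were lower in otospheres and 1 that was higher. Of all genes 10.3% were lower and 7.17% higher, and the median difference of the list from CSE was -0.53. *Stab1*, a scavenger receptor of sinusoidal endothelium and macrophages, fell by 4.32 ± 0.20 (limma, adjusted p = 1.44e-05). *Ptprb*, the vascular phosphatase that restrains *Tek*, fell by 3.24 ± 0.29 (adjusted p = 0.000289), and *Ly6c1*, a surface protein of endothelial and blood cells, rose by 4.15 ± 0.68 (adjusted p = 0.00529). Of 15 further pericyte genes, 8 were lower and 1 was higher, with a median of -1.58. The share of higher ones was near the 7.17% of all genes. *Gucy1a1*, the nitric oxide receptor subunit, read 11.62, 10.71 and 11.43 in CSE and 7.33, 6.23, 7.89 and 6.07 in otospheres and fell by 4.37 ± 0.45 (adjusted p = 0.000560), and *Art3* fell by 2.77 ± 0.31. *Rgs4*, a relative of *Rgs5*, rose by 2.65 ± 0.56 (adjusted p = 0.0167). *Rgs5* thus rose while most called genes of the wider pericyte list fell.

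Ligands of the vascular receptors moved in both directions, 4 higher and 2 lower of 18, where 7.17% of all genes were higher and 10.3% lower, so that the share of lower ones was near that of all genes. *Vegfa*, the ligand of *Kdr* and *Flt1*, read 9.78, 10.32 and 9.90 in CSE and 11.23, 11.73, 11.80 and 11.66 in otospheres, a rise of 1.60 ± 0.22 (limma, adjusted p = 0.00214). *Adm*, the adrenomedullin that signals through *Ramp2* and *Ramp3*, rose by 3.12 ± 0.52 (adjusted p = 0.00556). The lower ones were *Mmrn2*, a *Cd93* ligand of the vessel matrix (-2.41 ± 0.61, adjusted p = 0.0371), and *Slit2*, a ligand of the roundabout family (-1.34 ± 0.30, adjusted p = 0.0214). Of 7 co-receptors, *Ptprb*, *Nrp2* (-1.54) and *Unc5b* (-1.38) were lower and none was higher.

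The means of the macrophage and erythroid lists moved with that of the endothelial genes between CSE and otospheres. The mean log2 signal of the 32 endothelial genes was 9.64, 8.80 and 9.53 in CSE1, CSE2 and CSE3, 7.37, 7.27, 7.14 and 6.67 in otospheres, and 7.85 and 7.86 in ESCs. Of 14 macrophage and leukocyte genes 9 were lower in otospheres and none higher, against 10.3% and 7.17% of all genes. Their list mean was 8.73 to 8.75 in CSE and 6.50 to 7.01 in otospheres, where *C1qa*, *C1qc*, *Fcgr1* and *Mrc1* were well above background on no array. Of 11 erythroid genes 5 were lower, beside the same 10.3% of all genes. The list mean was 9.26 to 9.55 in CSE and 5.66 to 5.91 in otospheres, and the globin *Hbb-bt* was at least 734-fold lower. CSE2, the lowest CSE sample for the endothelial genes, was the highest for the erythroid ones, and its macrophage mean of 8.75 lay between the others. The part of blood and macrophage RNA in the signals of *Lyve1*, *Cd93*, *Fli1*, *Tal1* and *Stab1*, which those cells can make, was not tested.

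Of 14 mesenchyme genes 2 were lower, a share near the 10.3% of all genes, with list means of 11.9 to 12.3 in CSE and 7.95 to 11.8 in otospheres. Of 6 smooth muscle genes 3 were higher, against 7.17% of all genes, among them *Tagln* by 6.23 ± 0.99 and *Cnn1* by 5.88 ± 1.13. Their list means were 7.29 to 7.70 in CSE, 9.03 to 11.7 in otospheres and 9.47 to 10.5 in ESCs. *Myh11*, the myosin that defines mature smooth muscle, was well above background on no CSE array and read 5.13 to 5.62 over all samples. The smooth muscle genes and *Rgs5* were both higher in OS4+5 and OS6 than in OS1+2 and OS3, and whether one cell population carried both was not tested. Of 7 Schwann cell genes 4 were lower in otospheres, and of 8 cochlear epithelium genes 5 were lower and 2 higher. Over all genes 10.3% were lower and 7.17% higher.

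**Figure D4:**
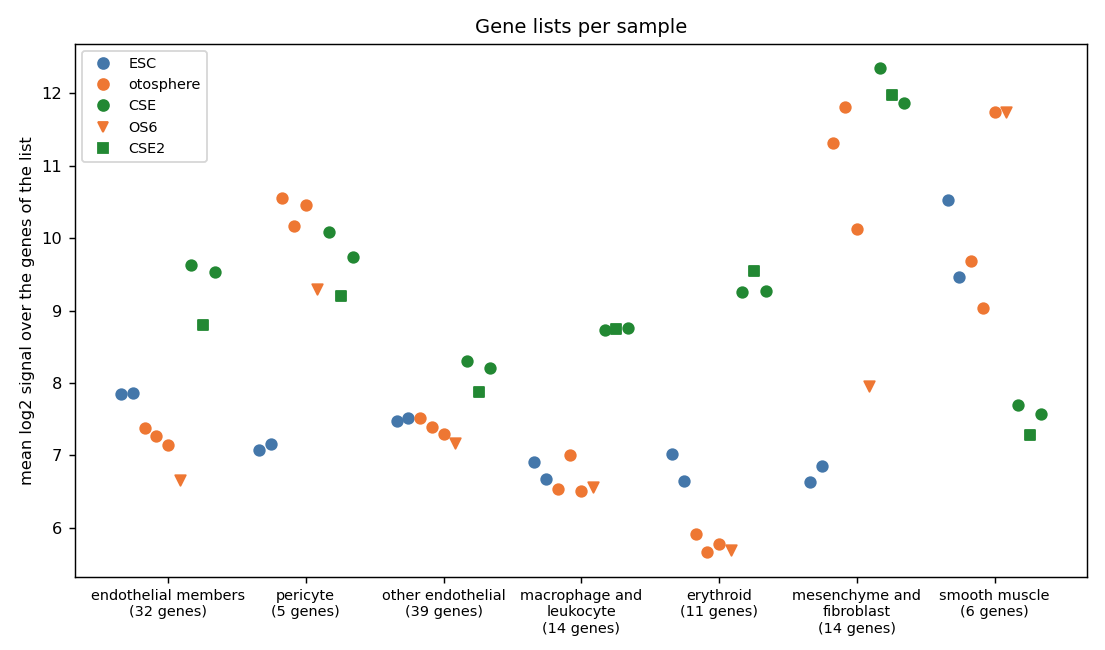
Mean log2 signal (vertical axis) over the genes of 7 lists (horizontal axis) in each of the 9 samples (points, coloured by group, with OS6 as a triangle and CSE2 as a square). The endothelial, macrophage and erythroid means are higher in all 3 CSE samples than in any otosphere sample, the pericyte means overlap, and the mesenchyme mean of OS6 is 7.95.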

How the data were processed

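Cy3-labelled RNA (50 or 100 ng, the amount per sample not given) had been hybridized to 11 single-colour Agilent mouse arrays. As deposited, the scanner files give the signal intensity of each spot (a median on the linear scale) beside that of its local background, as read by Feature Extraction 10.7.3.1 and not scaled across arrays. A second file that the authors deposited, with 43657 rows of log2 values already corrected by limma, quantile-normalized and filtered, was an alternative here. The plan allowed for a mean signal where a file had one, and the median was used.

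The median intensities went through limma 3.58.1 (R 4.3.3) for normexp correction with offset 16, then log2 and quantile normalization across all 11 arrays. Control spots and flagged outliers were dropped before spots of the same probe were averaged. Probes had to exceed the 95th percentile of the 308 negative controls by 10% (linear scale) on 2 or more arrays, and 47997 of 55681 did. Gene names came from RefSeq accessions. Arrays of a pair were averaged where their spread was under the spot noise (ratios 0.371 and 0.849, other pairs at least 1.49). A limma model with 1 mean for each of the 3 groups gave differences, standard errors and an F-test, adjusted by Benjamini-Hochberg across all probes kept (called under 0.05), and was tested on simulated data. Counts over all genes use the brightest probe of each. All 37 genes are named, and of other lists the 2 called genes with the largest difference in each direction. *Oc90*, *Pou5f1*, *Col3a1*, *Myh11*, *Unc5b* and the macrophage genes near background were named after their values were seen. The genes and lists were chosen with earlier results of these data known. The labels do not say that replicates were separate cultures or animals, so p-values measure the spread between these samples, which may be technical. The number of arrays limits the precision. Alternatives were the offset, scaling, filter, probe, slide, replicate block, test, samples in the fit, and each sample left out.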

Additional observations from a re-analysis of the deposited data

Results flagged for a closer look

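In 3 genes, 1 of the 4 otosphere samples stood apart from the others by more than Dixon's 95% limit, which chance passes in about 1 of 20 groups, and 37 groups of otosphere values were examined. *Fli1* read 4.87 in OS6 against 6.78 to 6.93 in the other otosphere samples, and was not well above background in OS6. *Robo4* read 5.44 in OS4+5 against 4.99 to 5.05, and *Erg* read 4.95 in OS4+5 against 4.79 in the others, both near background and far below CSE.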

How the results depend on the processing

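The counts of 17 genes lower in otospheres than in CSE, 17 higher in CSE than in ESCs, 12 lower in otospheres than in ESCs and 27 differing among the groups stayed within 1.5 times under every alternative run. The 1 gene higher in otospheres than in CSE became 2 with processed signals scaled to an upper percentile (*Flt4* added), 3 with every array as a separate sample (*Flt4* and *Anpep* added), and 1 to 2 with each sample left out. Taking every array as a sample treats the merged pairs as independent. The 2 genes lower in CSE than in ESCs became 1 in the authors' log2 table, 1 under the replicate block and 1 to 2 with each sample left out, *Pecam1* being the one lost. The 4 genes higher in otospheres than in ESCs became 8 under the replicate block and 2 to 8 with each sample left out. The cause was not tested. The brighter *Kdr* probe changed sign between CSE and ESCs under the percentile scaling (-0.11, adjusted p = 0.862, against 0.74). Deviations of arrays with the same replicate number correlated by -0.39 to 0.36, so the numbers did not pair the samples. Under that block the otosphere against CSE count was 16 lower and 1 higher, *Cdh5* (adjusted p = 0.0525) and *Sox17* (0.0963) lost and *S1pr1* gained. It also ended the calls of *Robo4*, *Kdr* and *Pecam1* between CSE and ESCs (adjusted p = 0.0501 to 0.116) and of *Esam* and *Sox17* between otospheres and ESCs (0.0699 and 0.0700). Low signal limits the genes given as bounds.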
